A study of Sus scrofa with 12 samples.

Results

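The genes of cellular copper handling, led by the copper importer SLC31A1, were followed through SMART-seq counts of porcine (Sus scrofa) embryos. The members were the 10 genes SLC31A1, SLC31A2, ATP7A, ATP7B, ATOX1, CCS, SOD1, COX17, SCO1 and SCO2, found by symbol among the 29329 genes of the count table. All 10 were in the table and 9 of them passed the filter on low counts that 17995 genes passed. SLC31A1 was chosen by its measured level, which differed widely between the control groups, and the other 9 were added to it as genes of copper transport and copper delivery. The difference of SLC31A1 between the control groups is therefore a description and carries no test.

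SMART-seq reverse-transcribes the polyadenylated RNA of small samples, here pooled embryos, and amplifies the full-length cDNA by PCR. The 12 libraries were made from embryos produced by in vitro fertilisation and formed 4 groups of 3, named after their titles: con-2c and si-2c, con-4c and si-4c. The con libraries are labelled as blank controls. The si libraries came from embryos injected with si-CCNB2, a small interfering RNA that targets the transcript of CCNB2, a mitotic cyclin. According to the methods each library was a pool of several embryos, and whether the control embryos were also injected is not clear from the sources used here. The title and the tissue label gave opposite stages in all 12 libraries (title 2c with a tissue label of 4-cell, title 4c with 2-cell), so the group names stand for titles only. Read by the tissue label, a difference between titles would run between the stages in the opposite direction. The synthetic RNAs that the study lists against CCNB2 are shown because they are the agent that separates the si groups from the con groups; both are given whole, as listed, with no part marked, and which of them these libraries received is not stated.
Si-CCNB2-2: gcuuauaccaguucccaaa
Si-CCNB2-1: gcagguccacuccaaguuu

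Copper is an essential but reactive metal, and cells keep it bound to proteins from its entry to its use. SLC31A1 (CTR1) is the main importer at the plasma membrane, and its relative SLC31A2 (CTR2) lies mostly on internal membranes. Small chaperones then carry copper to its targets: ATOX1 to the copper pumps ATP7A and ATP7B, CCS to the antioxidant enzyme SOD1, and COX17 to SCO1 and SCO2, which load cytochrome c oxidase in mitochondria. The early embryo inherits most of its RNA from the oocyte and later starts transcription of its own genome.

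Library totals were between 27785233 and 39510908 counts, lowest in the 3 con-4c libraries. CCNB2 had 429 to 510.4 CPM (counts relative to the library total after TMM scaling) in the 6 con libraries and 17.8 to 46.8 CPM in the 6 si libraries. The labelled tissue was checked with marker lists. Of 9 oocyte and early embryo markers 8 were in the table, and their summed level was 4930 to 5108 CPM among con-2c libraries, 3397 to 3406 among con-4c, 3544 to 3769 among si-2c and 4592 to 4775 among si-4c libraries. The 6 cumulus and granulosa cell markers in the table, of 8 listed, summed to 6.12 to 8.09, 7.46 to 10.9, 9.85 to 11.14 and 7.58 to 8.82 CPM in the same order, and the 2 sperm markers in the table, of 7 listed, to at most 1.16 CPM in any library. None of these markers was at 0 in all 12 libraries, and the part of other cells or of the oocyte's own RNA in the results below was not tested. Each library is scaled to its own total, so a change in a gene's own RNA cannot be told apart from a change in the rest of the RNA. Neither RNA per cell nor the number of cells can be read from these values.

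SLC31A1 (ENSSSCG00000034278) ranged more widely than any other tested member. It had 25.2, 33.0 and 27.5 CPM among con-2c libraries, 804, 869 and 828 among con-4c, 292, 311 and 314 among si-2c and 18.3, 18.2 and 16.5 among si-4c libraries. The groups stood in the order con-4c, si-2c, con-2c and si-4c, and no library of a group overlapped with those of the next. The mean was 28.6 ± 4.01 CPM (SD, n = 3) for con-2c and 834 ± 32.9 for con-4c, a ratio of 29.2, which is the value that chose the gene. For si-2c it was 306 ± 12.1 CPM and for si-4c 17.7 ± 1.02. The counts behind these values were between 552 and 26227.

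**Figure D1:**
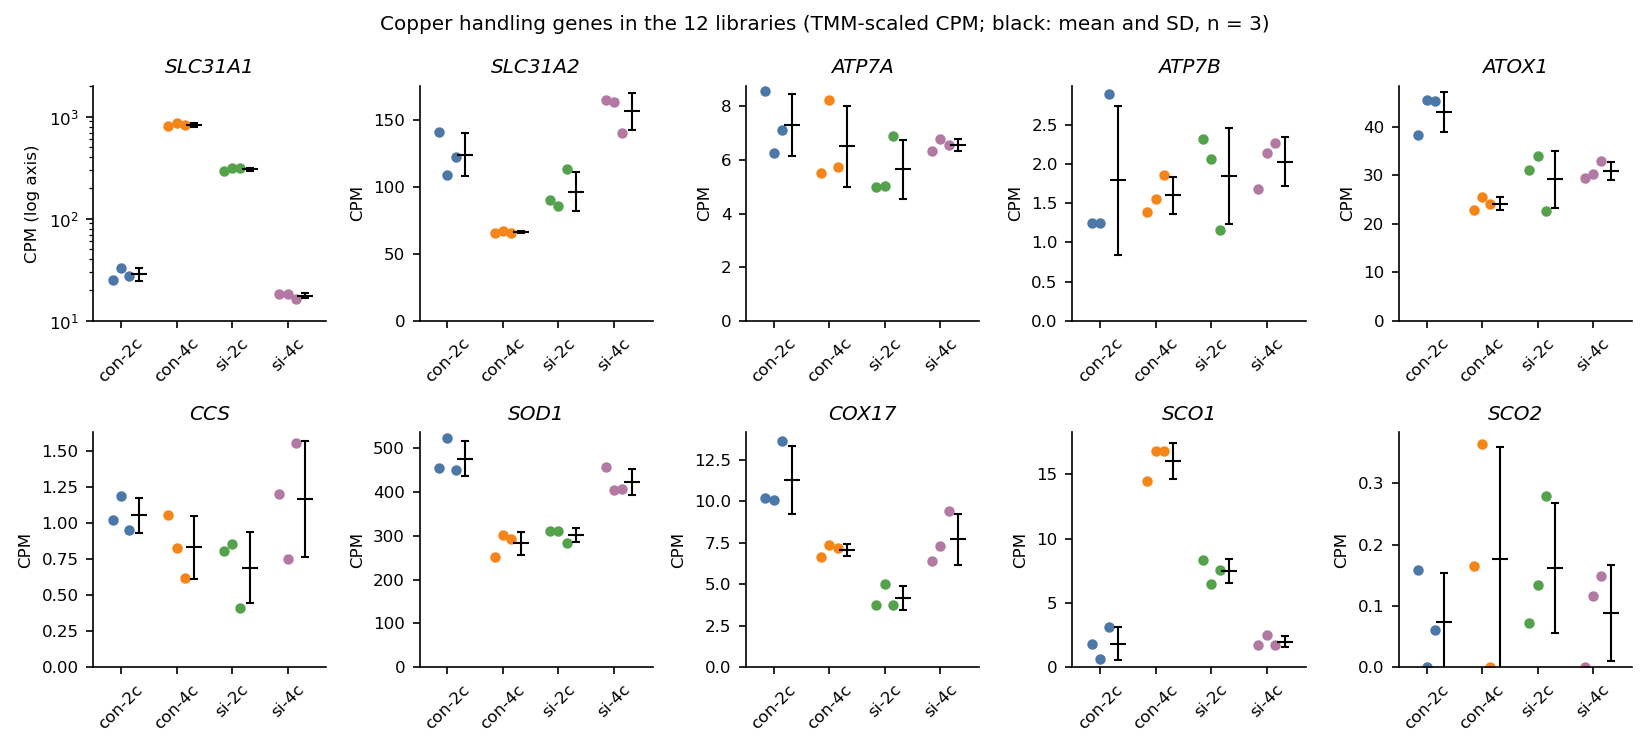
Level of each of the 10 genes in the 12 libraries, as TMM-scaled CPM on the y axis (logarithmic for SLC31A1, starting at 0 for the others), by group. Points are libraries and black marks the mean and SD of 3; SLC31A1 and SCO1 were high in con-4c and si-2c, while SLC31A2 and SOD1 had their lowest mean in con-4c.

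The comparison that shares no library with that choice is si-4c against si-2c. SLC31A1 was 17.3-fold lower in si-4c (log2 fold change, log2 FC, -4.11, SE 0.10, edgeR adjusted p 3.30e-14). It had the 6th smallest p of the 17995 genes tested. Of all tested genes 1368 had a log2 FC at least as low, SLC31A1 included, and 138 of these were among the 6668 with a mean of at least 10 CPM in their highest group. SCO1, a metallochaperone of mitochondria, was the other member called lower.

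By the thresholds of the study (adjusted p below 0.05 and a change of at least 1 on the log2 scale, in either direction) 2 of the 9 tested members were called in si-4c against si-2c, both lower, where 13.3% of all tested genes were called in either direction and 11.9% lower. The median log2 FC of the 9 members was 0.21, and that of all tested genes -0.13. Adjusted p alone was below 0.05 in 5 of 9, against 28.9% of all tested genes. The 3 that passed it without reaching the minimum fold were SLC31A2, SOD1 and COX17, and all 3 were higher in si-4c. Those 3 did not pass when libraries were scaled by their totals, which moved the median of all genes from -0.13 to -0.51; relative to that median they stood at 0.82, 0.61 and 1.02 under library totals and 0.83, 0.61 and 1.01 under TMM.

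SLC31A2 (ENSSSCG00000023714), the relative of SLC31A1, followed another order. Its level was 141, 109 and 123 CPM among con-2c libraries, 65.7, 67.2 and 65.9 among con-4c, 90.2, 85.9 and 113 among si-2c and 165, 164 and 141 among si-4c libraries. The con-4c libraries were below all others, and si-4c and con-2c overlapped, as did con-2c and si-2c. SLC31A2 was 1.62-fold above si-2c in the si-4c group (log2 FC 0.70, SE 0.11, edgeR adjusted p 0.000142), and 0.31 with an adjusted p of 0.0560 under library totals. The ratio of SLC31A1 to SLC31A2 within a library does not depend on how libraries are scaled. There were 0.179 to 0.302 counts of SLC31A1 per count of SLC31A2 in con-2c, 12.2 to 12.9 in con-4c, 2.78 to 3.62 in si-2c and 0.111 to 0.117 in si-4c. These are ratios of counts, not of RNA molecules, since counts were not divided by transcript length. The groups did not overlap in this ratio, and con-2c and si-4c were the nearest to each other.

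**Figure D2:**
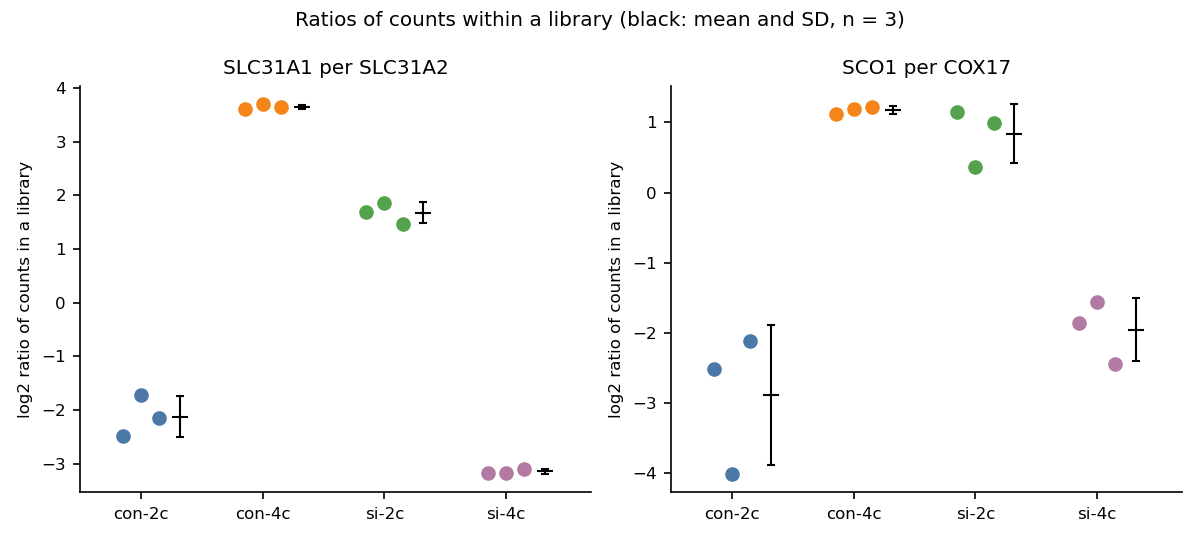
Log2 ratio of the counts of 2 genes within a library, for SLC31A1 per SLC31A2 (left) and SCO1 per COX17 (right), by group. Points are libraries and black marks the mean and SD of 3; the con-4c and si-2c libraries lay above 0 in both ratios and the con-2c and si-4c libraries below.

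The copper pumps showed no difference that passed a test in any comparison with a printed test. ATP7A (ENSSSCG00000012437), which exports copper and supplies secreted enzymes, had 8.56, 6.27 and 7.13 CPM among con-2c libraries, 5.53, 8.25 and 5.75 among con-4c, 4.99, 5.04 and 6.91 among si-2c and 6.33, 6.77 and 6.57 among si-4c libraries. All neighbouring groups overlapped. In si-4c against si-2c its log2 FC was 0.21 with a 95% interval of -0.21 to 0.64 (edgeR adjusted p 0.490). ATP7B (ENSSSCG00000033570), the related pump best known from liver, was low, with 39 to 95 counts per library and 1.16 to 2.89 CPM. Its log2 FC was 0.14 with an interval of -0.66 to 0.94 (edgeR adjusted p 0.841). Library totals turned the sign of both, to -0.17 and -0.23. Changes within those intervals are not excluded.

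The chaperone ATOX1 (ENSSSCG00000026414) had 38.3, 45.5 and 45.3 CPM among con-2c libraries, 22.8, 25.5 and 24.1 among con-4c, 31.0, 33.9 and 22.6 among si-2c and 29.4, 30.2 and 32.9 among si-4c libraries. The con-2c libraries were above all others, and the other groups overlapped with their neighbours in the order of levels. Between si-4c and si-2c its log2 FC was 0.08 with an interval of -0.20 to 0.36 (edgeR adjusted p 0.717), and -0.29 under library totals. Against con-2c, ATOX1 was lower in si-2c by edgeR (log2 FC -0.56, SE 0.13, adjusted p 0.00340), short of the minimum fold, and under library totals it stood at -0.18 (adjusted p 0.342). Against con-4c, the si-4c libraries gave 0.35 (SE 0.13, edgeR adjusted p 0.0468), which passed narrowly; it was 0.10 (adjusted p 0.639) under library totals and above an adjusted p of 0.05 without any 1 of the con-4c or si-4c libraries.

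SOD1 (ENSSSCG00000021355), the copper and zinc superoxide dismutase of the cytosol, was among the abundant members in counts, with 7666 to 17562 per library. Its level was 455, 522 and 451 CPM among con-2c libraries, 252, 302 and 293 among con-4c, 310.3, 311 and 283 among si-2c and 457, 404 and 407 among si-4c libraries. The con-2c and si-4c libraries lay above all libraries of con-4c and si-2c, and within each of these pairs the groups overlapped. SOD1 was 1.40-fold above si-2c in the si-4c group (log2 FC 0.49, SE 0.09, edgeR adjusted p 0.000504), and 0.10 with an adjusted p of 0.325 under library totals. CCS (ENSSSCG00000012934), which delivers copper to SOD1, had 19 to 52 counts per library, and its log2 FC of 0.76 had an interval of -0.22 to 1.74 (edgeR adjusted p 0.249). That interval includes both 0 and the value of SOD1.

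On the mitochondrial branch, COX17 and SCO1 went apart. COX17 (ENSSSCG00000011893) had 10.2, 10.1 and 13.7 CPM among con-2c libraries, 6.65, 7.36 and 7.22 among con-4c, 3.75, 5.04 and 3.78 among si-2c and 6.42, 7.32 and 9.44 among si-4c libraries. The con-2c libraries were highest and the si-2c libraries lowest, with si-4c and con-4c overlapping between them. COX17 was 1.85-fold above si-2c in the si-4c group (log2 FC 0.88, SE 0.19, edgeR adjusted p 0.00229), just under the minimum fold, and 0.51 with an adjusted p of 0.0697 under library totals. Without si-2c replicate 2 or without si-4c replicate 1 the log2 FC was 1.04 or 1.003 and COX17 was called higher.

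SCO1 (ENSSSCG00000018008) had 1.78, 0.624 and 3.14 CPM among con-2c libraries, 14.4, 16.8 and 16.8 among con-4c, 8.36, 6.48 and 7.53 among si-2c and 1.77, 2.49 and 1.73 among si-4c libraries. The con-4c group was highest and si-2c next, with si-4c and con-2c overlapping below them, and the con-2c libraries differed among themselves, with 21 to 102 counts. SCO1 was 3.73-fold below si-2c in the si-4c group (log2 FC -1.90, SE 0.34, edgeR adjusted p 0.000465). In counts within a library, SCO1 per COX17 was 0.0619 to 0.230 for con-2c, 2.17 to 2.33 for con-4c, 1.29 to 2.23 for si-2c and 0.184 to 0.340 for si-4c. SCO2, the relative of SCO1 that also serves cytochrome c oxidase, had 0 to 13 counts per library and was not tested.

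The effect of si-CCNB2 was then compared within each title, and these comparisons share their si libraries with the one above. In si-2c against con-2c 2 of the 8 members with a test, SLC31A1 left aside, were called, against 12.5% of all tested genes. SLC31A1 was 10.7 times as high in si-2c in the ratio of means, which is given as a value because con-2c had served to choose it. SCO1 was higher in si-2c (log2 FC 2.01, SE 0.35, edgeR adjusted p 0.000285), with 2.65 when con-2c replicate 3 was left out and 1.59 when con-2c replicate 2 was. COX17 was lower (log2 FC -1.43, SE 0.19, edgeR adjusted p 2.62e-05). SOD1 was lower (log2 FC -0.66, SE 0.09, edgeR adjusted p 2.56e-05) and so was SLC31A2 (-0.37, SE 0.11, adjusted p 0.0200), both short of the minimum fold. Under library totals SOD1 kept its sign at -0.26 (edgeR adjusted p 0.0156), while SLC31A2 stood at 0.04 (adjusted p 0.852). The adjusted p of SLC31A2 was also above 0.05 without con-2c replicate 1, si-2c replicate 1 or si-2c replicate 2. ATP7A, ATP7B and CCS did not pass, with log2 FCs of -0.37, 0.04 and -0.61. Groups had no overlapping libraries in 5 of these 8 members, against 41.7% of all tested genes.

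In si-4c against con-4c 2 of the same 8 members were called, against 19.0% of all tested genes. The mean of SLC31A1 was 47.2 times as high in con-4c as in si-4c, again a value without a test. SCO1 was 8.01-fold lower in si-4c (log2 FC -3.002, SE 0.35, edgeR adjusted p 3.35e-06). SLC31A2 was higher (log2 FC 1.24, SE 0.11, edgeR adjusted p 1.91e-07); under library totals it was 0.98 with an adjusted p of 8.03e-06 and no longer reached the minimum fold. SOD1 was also higher, by 0.58 (SE 0.09, edgeR adjusted p 6.35e-05), and COX17 had 0.13 with an interval of -0.28 to 0.53 (adjusted p 0.658). No libraries overlapped in 4 of these 8 members, against 50.9% of all tested genes.

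**Figure D3:**
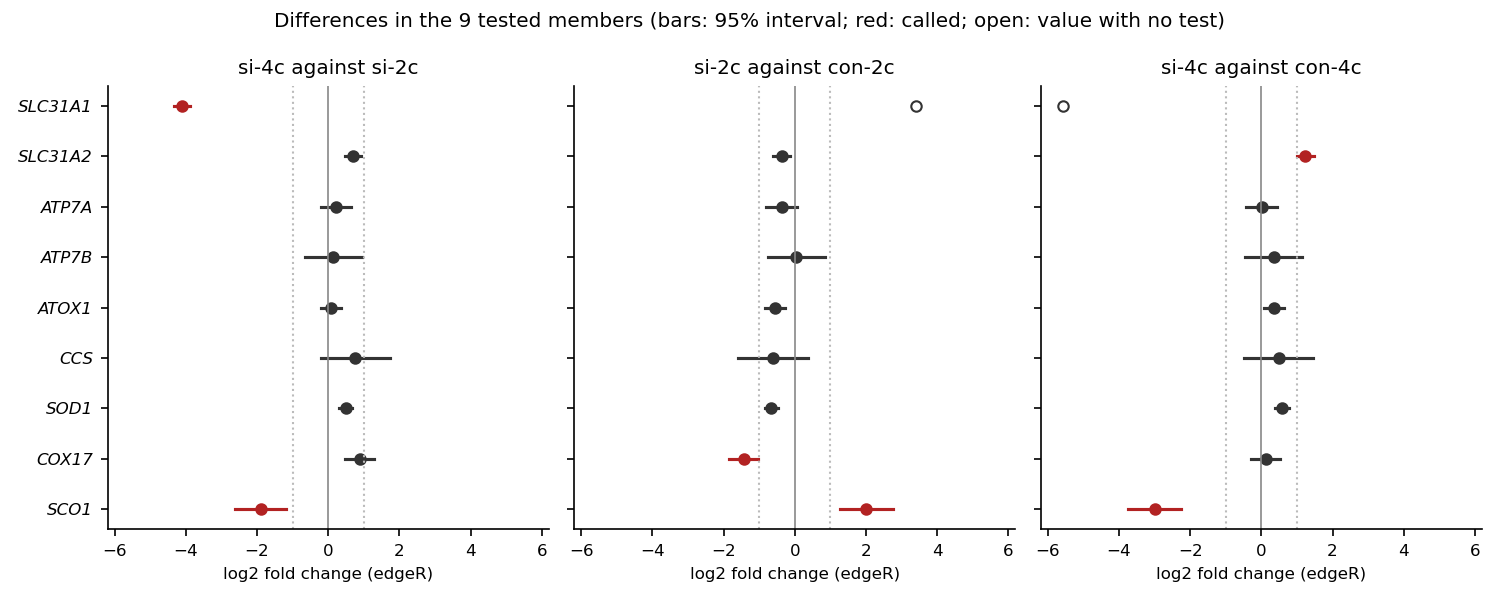
Log2 FCs from edgeR (x axis) of the 9 tested members in 3 comparisons. Bars are 95% intervals, red marks genes that passed both thresholds, the fold being shown by dotted lines, and open points are SLC31A1 values with no test; SCO1 lay on the same side of 0 as SLC31A1 in all 3 panels.

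The effect of si-CCNB2 was also compared between the titles, and this difference was past both thresholds in 4 of the 8 members with a test, against 32.4% of all tested genes. For SCO1 the effect was positive under the title 2c and negative under 4c. For SLC31A2, SOD1 and COX17 it was the more positive under 4c, and with library totals these 3 stood at 0.94, 0.58 and 0.93 and no longer reached the minimum fold. SLC31A1 had an effect of 3.42 under 2c and -5.56 under 4c, as log2 FCs without a test.

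Because the stage labels conflict, the crossed comparisons were also made. In si-4c against con-2c none of the 8 members with a test was called by edgeR or by DESeq2, and 0.333% of all tested genes were called by edgeR. An unadjusted edgeR p below 0.05 was found in 3 of the 8, against 11.3% of all tested genes. The libraries did not overlap in 2 of these 8, ATOX1 and COX17, against 14.1% of all tested genes. SLC31A1 was 1.62 times as high in con-2c in the ratio of means, a value without a test. For SCO1 the log2 FC was 0.12 with an interval of -0.65 to 0.88, and with 1 library left out it was between -0.30 (without con-2c replicate 2) and 0.72 (without con-2c replicate 3). In si-2c against con-4c 1 of the 8 members with a test was called, against 1.79% of all tested genes called in either direction and 1.63% called lower. This was SCO1, lower in si-2c (log2 FC -1.10, SE 0.32, edgeR adjusted p 0.0423). SLC31A1 was 2.73 times as high in con-4c, a value without a test. The SCO1 call was not stable: the adjusted p was above 0.05 with library totals (0.0903), with a replicate block (0.0612) and without any 1 of 9 of the 12 libraries (0.0516 to 0.163). SLC31A2 was higher in si-2c by 0.54 (SE 0.11, edgeR adjusted p 0.00573) and COX17 was lower by a log2 FC of -0.76 (SE 0.19, adjusted p 0.0234), neither reaching the minimum fold; with library totals COX17 stood at -0.64 (adjusted p 0.0789). Its adjusted p was also above 0.05 without any 1 of the con-4c libraries and without si-2c replicate 1 or 3.

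In con-4c against con-2c, the contrast that chose SLC31A1, the values of the other members are given without a test. The log2 FC was 3.12 for SCO1 (3.72 without con-2c replicate 3), -0.91 for SLC31A2, -0.83 for ATOX1, -0.75 for SOD1, -0.68 for COX17, -0.34 for CCS, and -0.17 for ATP7A and for ATP7B, which stood at 0.10 and 0.07 under library totals. Over all tested genes 17.7% were called in this contrast, and no count of called members is set beside that share.

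SLC31A1 and SLC31A2 are neighbours in the genome. In the RefSeq annotation of Sscrofa11.1, the build that the processing notes name, SLC31A2 lies at chr1:253795005-253805287 and SLC31A1 at chr1:253868389-253893135. The gap of 63101 bases between them holds 1 protein-coding gene, FKBP15, a protein linked to endosomes and actin, which ends 203 bases before SLC31A1. FKBP15 had 68.4 ± 2.91 CPM for con-2c, 171 ± 12.9 for con-4c, 120.4 ± 23.2 for si-2c and 74.3 ± 12.2 for si-4c. Its si-4c level was below that of si-2c (log2 FC -0.70, SE 0.13, edgeR adjusted p 0.000662), short of the minimum fold, and under library totals it was called at -1.08. On the other side, CDC26, a subunit of the anaphase-promoting complex, starts 530 bases after SLC31A1 and had a log2 FC of 0.45 (SE 0.21, edgeR adjusted p 0.131). PRPF4, a splicing factor, had 0.28 (SE 0.09, edgeR adjusted p 0.0299) and -0.0988 under library totals. SAL1, a lipocalin, had -0.02 (SE 0.17, edgeR adjusted p 0.943) and RNF183, a ubiquitin ligase, 0.50 (SE 0.53, adjusted p 0.543). These neighbours were taken by position, up to 3 protein-coding genes to either side, of which ZNF883 and ZFP37 were not analysed here. Reads near the ends of such close genes could be assigned to either, since the use of strand in the counting is not given in the sources used here. The other members lie apart from these: ATP7A on chromosome X, ATP7B on 11, ATOX1 on 16, CCS on 2, SOD1 and COX17 on 13 and SCO2 on 5. SCO1 was not matched to the RefSeq table.

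**Figure D4:**
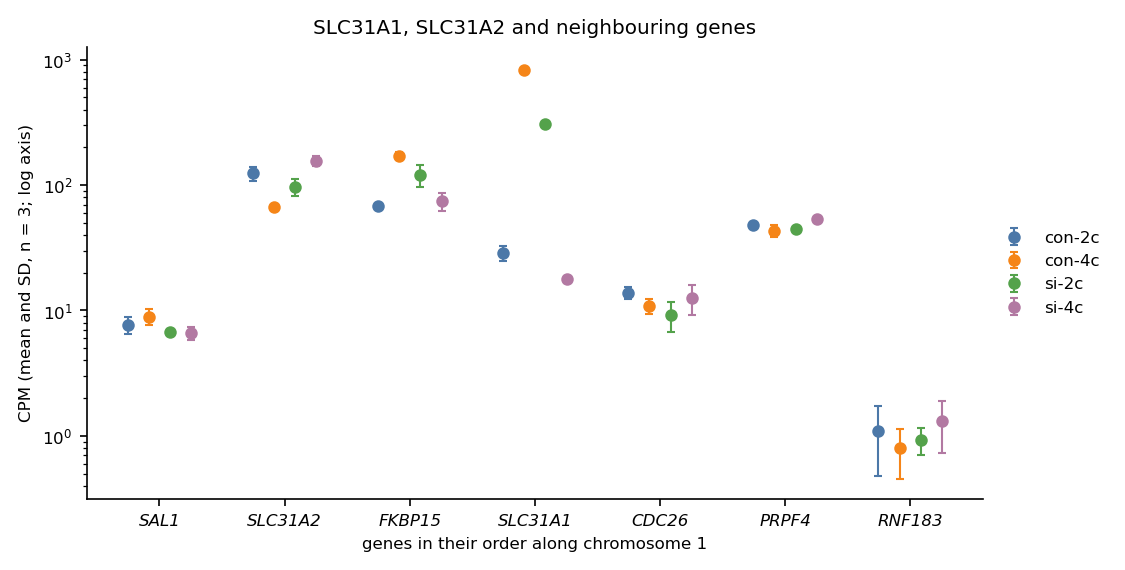
Mean CPM with SD (y axis, logarithmic; 3 libraries a group) of SLC31A1, SLC31A2 and the neighbouring genes of chromosome 1 that were in the count table, in genomic order on the x axis. SLC31A1 spanned from 17.7 to 834 CPM between groups, while CDC26 and PRPF4 on its other side stayed between 9.18 and 13.9 and between 43.3 and 54.1 CPM.

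The genes whose pattern over the 12 libraries was nearest to that of SLC31A1 were sought among 5776 tested genes with a symbol and a mean of at least 10 CPM in their highest group. Likeness was the root mean square difference of log2 CPM after each gene was centred on its own mean, so 0 is an identical profile. The nearest were TMSB10 (0.29), a thymosin that binds actin monomers, EMG1 (0.30), a ribosomal RNA methyltransferase, ALKBH7 (0.33), a mitochondrial dioxygenase, CDV3 (0.33), EXOSC10 (0.37), a nuclease of the exosome, and RPL37A (0.38), a ribosomal protein whose counts are uncertain because near-identical copies can share reads. In si-4c against si-2c their log2 FCs were between -4.35 for TMSB10 and -3.36 for CDV3. SCO1 stood at 1.15, the 136th in that order. Only its con-4c mean of 16.0 CPM met the level needed. The distance also used the control libraries that chose SLC31A1. ATP7A, ATP7B, CCS and SCO2 were below the level needed for this ranking. The remaining members in the ranking were far from SLC31A1: ATOX1 at 2.56, SOD1 at 2.62, COX17 at 2.65 and SLC31A2 at 2.77, the 5485th of 5776.

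**Figure D5:**
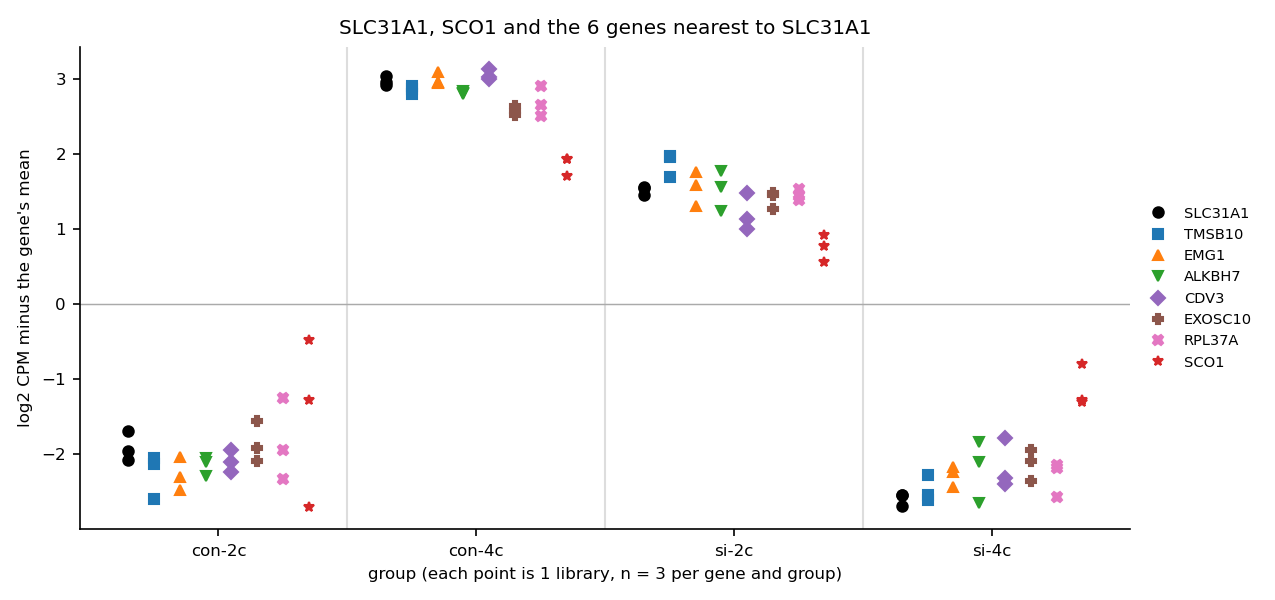
Log2 CPM minus each gene's mean over the 12 libraries (y axis) for SLC31A1, the 6 genes nearest to it and SCO1, by group. Each point is a library. All 8 genes lay above 0 in con-4c and si-2c and below 0 in con-2c and si-4c. For the 6 nearest genes this follows from how they were picked.

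Other genes of copper biology were taken from lists that hold no member. Assembly factors of cytochrome c oxidase, the enzyme that COX17, SCO1 and SCO2 serve, had 12 of 16 genes tested. None was called in si-4c against si-2c by edgeR or DESeq2, beside 13.3% of all tested genes called by edgeR. An unadjusted edgeR p below 0.05 was found in 7, beside 38.3% of all tested genes, and adjusted p alone was below 0.05 in 6 that were higher and 1 that was lower, beside 28.9% of all tested genes. Their median log2 FC was 0.20, beside -0.13 over all tested genes.

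Of 22 genes of copper uptake, trafficking and storage 17 were tested, and 1 was called higher and 1 lower in si-4c against si-2c (median log2 FC 0.07), beside 1.47% of all tested genes called higher and 11.9% lower. Adjusted p alone was below 0.05 in 4 that were higher and 3 that were lower, beside 28.9% of all tested genes. An unadjusted edgeR p below 0.05 was found in 7, beside 38.3% of all tested genes. STEAP1, of a family of metalloreductases, had 4.41 ± 0.397 CPM (si-2c) and 9.19 ± 1.37 CPM (si-4c) (log2 FC 1.06, SE 0.21, edgeR adjusted p 0.00105). It was 0.67 under library totals (adjusted p 0.0154), and without si-2c replicate 1 or si-4c replicate 1 it was 0.99 or 0.94, each time short of the minimum fold. APP, the amyloid precursor protein, which binds copper, went from 6.80 ± 1.79 CPM (si-2c) to 0.716 ± 0.312 (si-4c) (log2 FC -3.24, SE 0.30, edgeR adjusted p 5.21e-07). The next genes are outside the naming rule and were looked up after their values were seen. The metallothioneins MT1A and MT3, which store metal, did not pass (log2 FC -0.19 and 0.40, edgeR adjusted p 0.783 and 0.216). MTF1, the metal-responsive transcription factor, was lower in si-4c (log2 FC -0.57, edgeR adjusted p 0.00159), short of the minimum fold.

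Of 16 copper-dependent enzymes other than SOD1, such as lysyl oxidases and amine oxidases, 10 were tested. None was called in si-4c against si-2c by edgeR, beside 13.3% of all tested genes, and DESeq2 called 1 lower. An unadjusted edgeR p below 0.05 was found in 4, beside 38.3% of all tested genes. By adjusted p alone 0 of 10 passed, beside 28.9% of all tested genes, and their median log2 FC was -0.62, beside -0.13 over all tested genes. Several were near the floor: LOXL3, LOXL4, HEPH, HEPHL1, LOX and AOC2 had 0 counts in some library. Their highest counts were 13, 21, 25, 37, 47 and 62, and the median rests in part on such genes. Protein lipoylation and copper-induced cell death had 10 of 12 genes tested and none called by edgeR or DESeq2, beside 13.3% of all tested genes called by edgeR. An unadjusted edgeR p below 0.05 was found in 8, beside 38.3% of all tested genes, and adjusted p alone was below 0.05 in 4 that were higher and 3 that were lower, beside 28.9% of all tested genes (median log2 FC 0.25).

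Of 9 genes of glutathione and redox defence 8 were tested and 2 were called, both higher in si-4c (median log2 FC 0.28), beside 1.47% of all tested genes called higher. Both are antioxidant enzymes, and under library totals both stayed higher but fell short of the minimum fold. Over the list, adjusted p alone was below 0.05 in 3 that were higher and 1 that was lower, beside 28.9% of all tested genes. An unadjusted edgeR p below 0.05 was found in 5, beside 38.3% of all tested genes. CAT, the catalase that degrades hydrogen peroxide, had 50.2 ± 7.27 CPM (si-2c) and 109 ± 6.45 CPM (si-4c) (log2 FC 1.12, SE 0.11, edgeR adjusted p 6.25e-07), and 0.73 under library totals (adjusted p 8.66e-05). SOD2, the manganese superoxide dismutase of mitochondria, had 6.78 ± 1.05 CPM (si-2c) and 14.8 ± 2.36 CPM (si-4c) (log2 FC 1.13, SE 0.17, edgeR adjusted p 6.14e-05), and 0.74 under library totals (adjusted p 0.00384).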

How the data were processed

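The authors deposited 1 table of raw counts with a line for each Ensembl gene. The submitters' processing notes name cutadapt 1.9, HISAT2 2.2.1, StringTie 2.1.6, DESeq2, edgeR and the build Sscrofa11.1, with no roles; the counting program, strand use and treatment of reads matching several genes are not given in the sources used here. Tests used edgeR 4.0.16 (R 4.3.3), with genes kept by filterByExpr, TMM factors (0.852 to 1.21), 1 quasi-likelihood model of 4 group means over 12 libraries, and Benjamini-Hochberg adjustment over 17995 genes. Calls needed an adjusted p below 0.05 together with a log2 fold change (log2 FC) of 1 or more in size, as in the study. SE is the log2 fold change over the square root of F. DESeq2 1.42.0, library totals, RLE factors, other filters, a replicate block and leaving out each library were alternatives. The script was tested on simulated data. CPM used TMM-scaled totals. Likeness used a prior count of 2. Named genes were the members, CCNB2, from each list the 2 called genes with the smallest p in each direction in si-4c against si-2c, and the 6 genes nearest to SLC31A1. Members and lists were chosen with earlier results of these data known. The methods describe 3 sets of embryos per group and, for the study's data in general, independent experiments; whether the sets came from separate fertilisations is not stated, so p-values measure the spread between these libraries, which may be technical. Amplified reads carried no molecular identifiers. Replicates were not copies of each other: chi-square over its degrees of freedom was 7.27 to 38.7 for pairs within groups.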

Additional observations from a re-analysis of the deposited data

Results flagged for a closer look

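The effect of si-CCNB2 differed between the titles 2c and 4c in 4 of the 8 members with a test, where 32.4% of all tested genes were called in this comparison. SLC31A1 is given beside them as a value only. The value given is the effect in the libraries titled 4c minus that in the libraries titled 2c, on the log2 scale. It was -8.98 for SLC31A1, where the difference was not tested because the control groups had chosen the gene; all si-2c libraries were above all con-2c libraries and all si-4c libraries below all con-4c libraries. It was -5.02 for SCO1 (SE 0.49, edgeR adjusted p 2.77e-07), also with opposite directions under the titles, and -5.64 without con-2c replicate 3. It was 1.60 for SLC31A2 (SE 0.16, edgeR adjusted p 2.97e-07), 1.24 for SOD1 (SE 0.13, adjusted p 4.16e-07) and 1.56 for COX17 (SE 0.27, adjusted p 0.000162). Under library totals these 3 fell to 0.94, 0.58 and 0.93 and no longer reached the minimum fold. The titles and the tissue labels give opposite stages for the same libraries, so the effects are given by title only.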

How the results depend on the processing

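Of 1160 log2 FCs of the members under the alternatives, 1102 kept their direction and their side of the threshold or, where no test was made, moved by less than the replicate spread, 15 lost and 3 gained a call, 30 with a test turned in sign and 10 without one moved by more. Counts of members called below leave out SLC31A1 where it has no test. In si-4c against si-2c, SLC31A1 was between -4.50 and -4.06 with an adjusted p of at most 1.65e-10, and 2 members were called lower under every alternative. With library totals in place of TMM, the values with a test that turned in sign were ATP7A -0.17, ATP7B -0.23 and ATOX1 -0.29 in si-4c against si-2c, SLC31A2 0.0357 and ATP7A 0.0299 for si-2c against con-2c, ATP7A -0.24 and COX17 -0.13 for si-4c against con-4c, and ATP7A -0.27 and ATP7B -0.31 in the difference between titles; without a test, ATP7A turned to 0.10 and ATP7B to 0.0738 in con-4c against con-2c. Library totals also left 0 members higher by both thresholds for si-4c against con-4c and for the difference between titles. SCO1 then lost its call in si-2c against con-4c (edgeR adjusted p 0.0903), which left no member with a test called there. The median of all genes moved from -0.13 to -0.51 in si-4c against si-2c, and the share of calls that were higher from 11% to 1.59%; this share moved from 85.5% to 98.1% in si-2c against con-2c, 16.5% to 6.41% in si-4c against con-4c, 9.01% to 21.9% in si-2c against con-4c, 81.6% to 93.4% in con-4c against con-2c and 30.5% to 8.67% in the difference between titles. The cause of these shifts was not tested. With at least 10 CPM in 3 libraries required, ATOX1 was -0.0247 in si-4c against si-2c, and 0 members were called lower in si-2c against con-2c because COX17 was no longer tested. ATP7A in si-4c against con-4c was -0.0312 with RLE factors, -0.0311 with DESeq2 and -0.0038 with only the groups compared. Replicate numbers did not pair the libraries: the correlation of same-numbered libraries was -0.0495 to 0.0290 and 3 of 12 libraries were closest to their own number. With a replicate block, the calls for si-4c against si-2c were 257 higher and 1830 lower, and 264 and 2136 without it. The block also removed the SCO1 call in si-2c against con-4c (edgeR adjusted p 0.0612). Leaving out 1 library at a time kept 727 of 756 values. Members called higher in si-4c against si-2c were then 0 to 1. The SCO1 call in si-2c against con-4c was lost in most of these fits. Log2 FCs that turned in sign ranged, in si-4c against si-2c, from -0.11 to 0.34 for ATP7B and -0.0741 to 0.20 for ATOX1; for si-2c against con-2c, from -0.17 to 0.57 for ATP7B; for si-4c against con-4c, from -0.0895 to 0.22 for ATP7A and -0.0380 to 0.25 for COX17; in si-4c against con-2c, from -0.0269 to 0.68 for ATP7B, -0.11 to 0.38 for CCS and -0.30 to 0.72 for SCO1; in si-2c against con-4c, from -0.37 to 0.0057 for ATP7A; and in the difference between titles, from -0.22 to 0.52 for ATP7B. The same alternatives were run after seeing the data for the other named genes and the pathway lists in si-4c against si-2c. With library totals PRPF4 was -0.0988, and the calls were 1 lower for cytochrome c oxidase assembly, 0 higher and 2 lower for copper uptake, trafficking and storage, 2 lower for copper enzymes and 0 higher for glutathione and redox. Under that scaling 50 of all 17995 tested genes were called higher and 3096 lower, against 264 and 2136 under TMM. With at least 10 CPM required, uptake, trafficking and storage had 0 higher and 2 lower, and copper enzymes had 1 lower without a filter and 1 lower with DESeq2. Lower calls over all genes in these settings were 458 of 6674, 2280 of 29329 and 2496 of 17995, in the same order. With 1 library left out, calls were 0 to 1 higher and 1 to 2 lower for uptake, trafficking and storage, 0 to 1 lower for copper enzymes and for cytochrome c oxidase assembly, and 0 to 1 higher for lipoylation and copper-induced cell death. Over all 19004 to 19665 genes tested in these fits, 230 to 330 were called higher and 1737 to 2287 lower. MT1A then ranged from -0.59 to 0.16 and SAL1 from -0.0945 to 0.0694. CCS, ATP7B and SCO2 had at most 95 counts in any library.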
